A study of Mus musculus with 6 samples.

Results

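The 8 adipogenic transcription factors described here, *Pparg*, *Cebpa*, *Cebpb*, *Cebpd*, *Klf15*, *Ebf1*, *Ebf2* and *Zfp423*, were taken from the table by gene symbol, without a threshold on their values. They are 8 of the 37384 genes in the deposited table of counts. All 8 had enough reads to be tested, as did 15674 genes in all. RNA was sequenced from floated adipocytes of inguinal subcutaneous white adipose tissue (scWAT) of male mice at postnatal day 7, to ask how loss of the Hippo kinases LATS1 and LATS2 changes the adipocyte. Both groups carried floxed *Lats1* and *Lats2* alleles (genotype Lats1f/fLats2f/f). The 3 L1L2-AKO libraries came from mice that also carried AdipoqCre, and the 3 L1L2-FF libraries from control mice without it. Each library pooled the adipocytes of 4 mice, so differences between single mice cannot be seen. Cre driven by the *Adipoq* promoter is active in adipocytes, and any other cell that floated with them also gave RNA to a library.

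Adipogenesis runs as a relay of DNA-binding proteins. C/EBPβ and C/EBPδ appear early after a hormonal stimulus and switch on PPARγ and C/EBPα, which then hold each other on and together activate most genes of the fat cell. EBF proteins and ZFP423 mark cells committed to the adipocyte lineage, and KLF15 acts late, on genes of glucose and lipid handling. LATS1 and LATS2 restrain YAP and TAZ, and TAZ is known to bind PPARγ and repress it.

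Library totals lay between 30548473 and 32107917 counts. *Lats1* fell from 82.9 ± 9.90 to 40.2 ± 1.16 CPM, the count relative to the library total after TMM scaling (mean ± SD, n = 3). Its adjusted p was 0.00131, by the quasi-likelihood test of edgeR and Benjamini-Hochberg over all tested genes. *Lats2* went against the label. It rose from 76.4 ± 8.68 to 119 ± 20.6 CPM (edgeR quasi-likelihood adjusted p = 0.0278). Of its 50-base stretches, 41.2% also occur in other genes, and the gene *Gm49361* shares the most. The *Lats2* call was lost without L1L2-FF replicate 1 or 3 or L1L2-AKO replicate 2 or 3, with log2 fold changes from 0.55 to 0.62. The counts of the whole gene cannot show whether the floxed exons were lost, so the samples are called L1L2-AKO-labelled libraries. By quantitative PCR on adipocytes isolated from scWAT at the same age, the paper reported that both *Lats1* and *Lats2* mRNA were reduced in L1L2-AKO mice. Defining adipocyte markers were high in every library, with a summed level of 9257 to 9715 CPM for 8 markers in L1L2-FF and 6075 to 8514 CPM in the L1L2-AKO-labelled libraries. The summed level of 14 macrophage markers was 283 to 545 CPM in L1L2-FF and 1028 to 1141 CPM in the L1L2-AKO-labelled libraries. In bulk RNA, fewer cells of a type and less RNA per cell cannot be told apart, and the part of cell mixture in the results below was not tested.

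Of the 8 factors, *Pparg* alone passed the test between genotypes, and it was lower in the L1L2-AKO-labelled libraries. This call is 12.5% of the factors, beside 16.5% of all tested genes called in either direction (9.28% higher and 7.18% lower), so the share among the factors was not above the share among all genes. The genotypes did not overlap for *Pparg* and *Klf15*, both lower, where 36.4% of all tested genes did not overlap, 18% upward and 18.4% downward. *Cebpd* had the largest fold change of the 8, upward, and just missed the threshold. The median log2 fold change of the 8 was -0.14, beside -0.02 over all tested genes, with a range from -0.78 for *Klf15* to 1.25 for *Cebpd*.

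**Figure D1:**
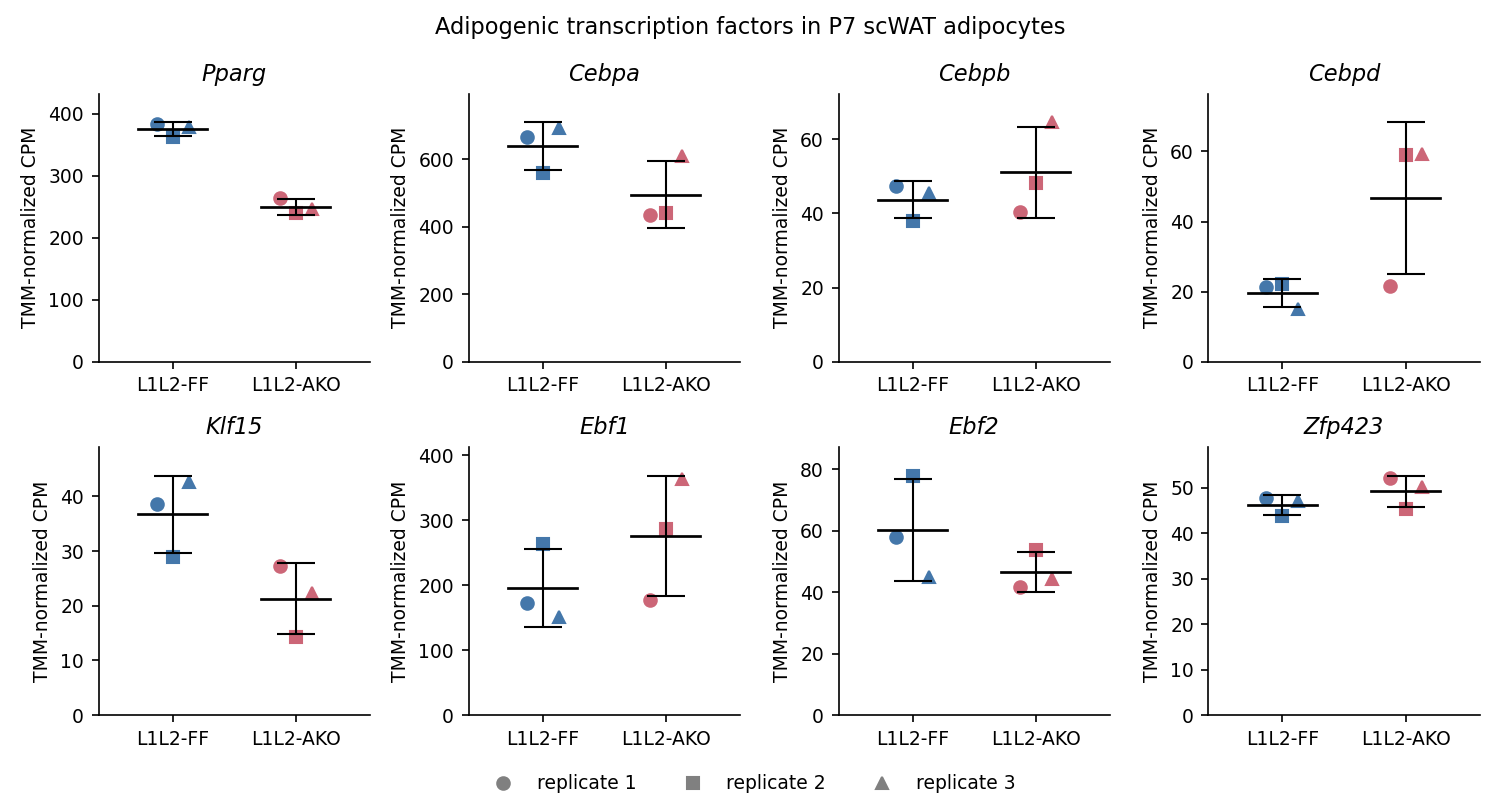
TMM-normalized CPM (y axis, linear, from 0) of each factor in the 3 L1L2-FF (blue) and 3 L1L2-AKO (red) libraries, with symbols for the replicate number, a long bar for the mean and whiskers for the SD. *Pparg* and *Klf15* show no overlap between genotypes, while L1L2-AKO replicate 1 of *Cebpd* sits at 21.6 CPM, inside the L1L2-FF range, and replicates 2 and 3 sit at 58.9 and 59.4 CPM.

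*Pparg* encodes the nuclear receptor that drives fat cell formation and is required to maintain it. The gene spans chr6:115360951-115490399 on the plus strand (mm10, GENCODE M21). RefSeq (GRCm38.p6) lists 3 start sites for it, and the count of a gene pools all of them, so the data cannot tell which start lost transcripts. The windows from 250 bases before to 50 bases after each start are shown because *Pparg* is the factor that passed the test. Capitals mark the C/EBP letters TTGCNNAA and the GC box GGGCGG, both searched on either strand.
Pparg start 1, chr6:115360894-115361193, plus strand: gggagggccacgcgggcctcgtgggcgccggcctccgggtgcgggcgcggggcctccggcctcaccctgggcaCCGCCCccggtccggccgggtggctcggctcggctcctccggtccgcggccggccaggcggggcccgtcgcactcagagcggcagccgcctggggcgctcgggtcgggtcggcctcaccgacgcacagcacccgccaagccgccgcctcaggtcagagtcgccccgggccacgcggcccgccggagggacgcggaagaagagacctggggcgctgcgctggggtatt
Pparg start 2, chr6:115362099-115362398, plus strand: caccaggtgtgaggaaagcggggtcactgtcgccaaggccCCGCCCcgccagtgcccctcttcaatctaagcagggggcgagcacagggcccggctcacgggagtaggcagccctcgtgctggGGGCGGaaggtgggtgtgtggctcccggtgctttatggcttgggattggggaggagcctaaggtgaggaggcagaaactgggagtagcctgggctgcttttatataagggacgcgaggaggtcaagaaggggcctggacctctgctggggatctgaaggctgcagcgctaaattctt
Pparg start 3, chr6:115421816-115422115, plus strand: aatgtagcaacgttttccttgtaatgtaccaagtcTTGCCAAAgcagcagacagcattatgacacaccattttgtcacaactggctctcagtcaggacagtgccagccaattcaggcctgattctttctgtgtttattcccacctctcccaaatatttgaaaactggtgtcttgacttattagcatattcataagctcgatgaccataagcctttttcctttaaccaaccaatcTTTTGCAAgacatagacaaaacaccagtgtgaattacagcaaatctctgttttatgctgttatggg
The windows differ in make-up. GC content was 80.3% at start 1, 62.7% at start 2 and 40.3% at start 3. The third window alone holds the C/EBP letters, at 2 positions, 215 and 16 bases before the start, which 10.8% of 32851 RefSeq windows of the same length hold at least once. GC boxes stand in the first and second windows, as in 35.7% of all windows. A match is a description of the letters, not evidence of binding. Letters of an E-box, EBF, AP-1, a PPAR-RXR repeat and TEAD, a DNA-binding partner of YAP and TAZ, were searched as well. Apart from the E-box, these matched no window of any factor. The TEAD letters GGAATG stand in 14.7% of all windows.

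*Pparg* stood at 384, 362 and 379 CPM in L1L2-FF replicates 1 to 3, and at 264, 239 and 246 CPM in the L1L2-AKO-labelled libraries, replicates 1 to 3. Each genotype was tight, and the highest value in the L1L2-AKO-labelled libraries lay far under the lowest L1L2-FF value. The mean fell from 375 ± 11.4 to 250 ± 12.6 CPM, 1.501-fold, a log2 fold change of -0.59 with an SE of 0.115 and a 95% interval from -0.85 to -0.32 (edgeR quasi-likelihood adjusted p = 0.0122). With fewer libraries the size hardly moved, from -0.63 to -0.55, but the call was lost without L1L2-FF replicate 1, L1L2-AKO replicate 2 or L1L2-AKO replicate 3, with edgeR adjusted p of 0.0624, 0.0697 and 0.0547. Mature adipocyte markers as a sum were also lower in the L1L2-AKO-labelled libraries, as given above, but the 8 did not fall alike. Of them 3 passed, all lower, while *Plin4* was at 2462 and 2463 CPM and *Lep* had a log2 fold change of 0.41. Several, such as *Adipoq*, *Slc2a4* and *Lep*, are also on the list of PPARγ and C/EBPα targets below, so the sum is not independent of that list. The part of these markers in the fall of *Pparg* was not tested.

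*Cebpa*, the partner that keeps PPARγ on in the mature fat cell, is a gene without introns at chr7:35119293-35121928 (plus strand). Its level was 665, 559 and 693 CPM in L1L2-FF and 434, 442 and 610 CPM in the L1L2-AKO-labelled libraries. The third L1L2-AKO-labelled library overlapped the controls. The log2 fold change was -0.37 with an SE of 0.179 and a 95% interval from -0.78 to 0.04, which did not pass the threshold (edgeR quasi-likelihood adjusted p = 0.211). The interval covers a fall as large as that of *Pparg* as well as no difference.

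The early factors did not share one pattern. *Cebpb* (chr2:167688915-167690418, plus strand) was at 47.4, 38.1 and 45.6 CPM in L1L2-FF and at 40.4, 48.2 and 64.6 CPM in the L1L2-AKO-labelled libraries, a log2 fold change of 0.23 with a 95% interval from -0.19 to 0.64 (edgeR quasi-likelihood adjusted p = 0.458). Its genotypes overlapped widely, and without L1L2-AKO replicate 3 the log2 fold change was 0.03. *Cebpd* (chr16:15887286-15891031, plus strand), a C/EBP known to be induced by glucocorticoids and cytokines, was at 21.4, 22.3 and 15.1 CPM in L1L2-FF and at 21.6, 58.9 and 59.4 CPM in the L1L2-AKO-labelled libraries. One of these 3 libraries, replicate 1, was at the control level, and the others stood far above it.

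The mean of *Cebpd* was 19.6 ± 3.95 CPM in L1L2-FF and 46.6 ± 21.7 CPM in the L1L2-AKO-labelled libraries. This is a 2.38-fold difference, a log2 fold change of 1.25 with an SE of 0.361, and it just missed the threshold (edgeR quasi-likelihood adjusted p = 0.0506). Without L1L2-AKO replicate 1 the log2 fold change was 1.59 and the edgeR adjusted p was 0.00182. Without any other single library the edgeR adjusted p was higher, from 0.0646 to 0.164, and the log2 fold change lay between 1.04 and 1.35. The limma-voom adjusted p with all libraries was 0.101. *Cebpb* shares 20.7% of its exonic bases with *Tmem189* on the opposite strand, and *Cebpd* shares 15.0% with *Spidr*. The strand setting of the counting is not stated, so reads from these overlaps cannot be assigned with certainty. *Tmem189* differed 1.18-fold and *Spidr* 1.23-fold between genotypes, and neither passed (edgeR quasi-likelihood adjusted p = 0.245 and 0.237).

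**Figure D2:**
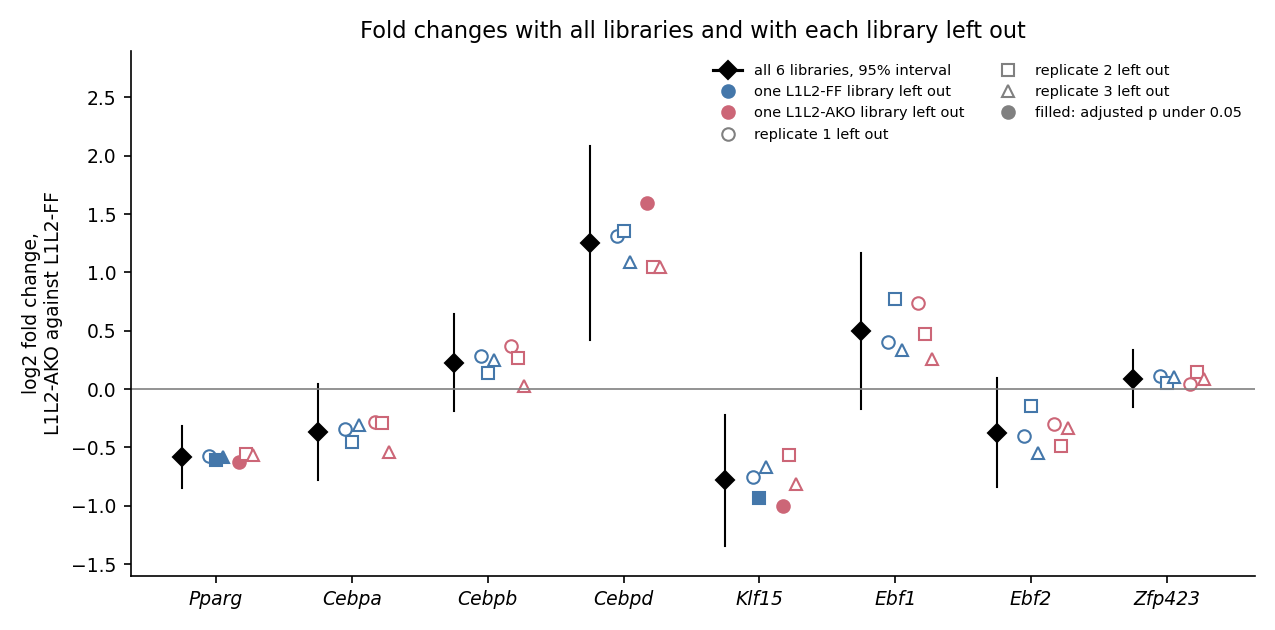
Log2 fold change of L1L2-AKO against L1L2-FF (y axis) for each factor, with all 6 libraries (black diamonds, 95% interval) and with each library left out (blue, an L1L2-FF library left out; red, an L1L2-AKO library left out; circle, square and triangle for replicates 1, 2 and 3; filled where the edgeR adjusted p is under 0.05). *Pparg* keeps its size, between -0.63 and -0.55, while *Cebpd* moves between 1.04 and 1.59 and *Klf15* between -1.0 and -0.56.

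*Klf15*, a Krüppel-like factor of late adipogenesis that acts on *Slc2a4* and on lipid storage, lies at chr6:90462576-90475238 (plus strand). It was at 38.6, 28.9 and 42.7 CPM in L1L2-FF and at 27.2, 14.3 and 22.4 CPM in the L1L2-AKO-labelled libraries. The genotypes did not overlap, though L1L2-FF replicate 2 and L1L2-AKO replicate 1 came close. The log2 fold change was -0.78 with an SE of 0.243 and a 95% interval from -1.34 to -0.22, and it missed the threshold over all genes (edgeR quasi-likelihood adjusted p = 0.0628). It passed without L1L2-FF replicate 2 and without L1L2-AKO replicate 1, with edgeR adjusted p of 0.0351 and 0.0377. Without any of the other 4 libraries the edgeR adjusted p was 0.149 to 0.172, and the log2 fold change shrank to -0.56 without L1L2-AKO replicate 2. The RefSeq window at its start holds the E-box CACGTG 3 times, letters that 7.15% of all windows hold at least once.

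The lineage factors stayed short of the threshold. *Ebf1* (chr11:44617317-45008091, plus strand), which serves both fat and B cell development, was at 172, 263 and 151 CPM in L1L2-FF and at 178, 286 and 363 CPM in the L1L2-AKO-labelled libraries. Its log2 fold change was 0.50 with a 95% interval from -0.17 to 1.17 (edgeR quasi-likelihood adjusted p = 0.297). The spread within each genotype was wide and the ranges overlapped, and the log2 fold change ran from 0.26 without L1L2-AKO replicate 3 to 0.77 without L1L2-FF replicate 2. The B and T cell markers summed to 8.80 to 24.8 CPM in L1L2-FF and 15.7 to 28.8 CPM in the L1L2-AKO-labelled libraries, with 0 of 8 past the threshold by edgeR, 2 at an unadjusted p under 0.05, 1 by DESeq2 and 0 by limma-voom. Without L1L2-FF replicate 2 or L1L2-AKO replicate 1, 4 and 1 of them passed.

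*Ebf2* (chr14:67233292-67430918, plus strand), an EBF that promotes the beige and brown programme, was at 57.9, 78.0 and 45.0 CPM in L1L2-FF and at 41.6, 53.9 and 44.2 CPM in the L1L2-AKO-labelled libraries. The log2 fold change was -0.37 with a 95% interval from -0.84 to 0.09 (edgeR quasi-likelihood adjusted p = 0.261), and it was -0.15 without L1L2-FF replicate 2. *Zfp423* (chr8:87661810-87959595, minus strand), a zinc finger protein of committed preadipocytes that also holds white adipocytes in the white state, was the steadiest of the 8. It was at 47.8, 43.8 and 47.1 CPM in L1L2-FF and at 52.1, 45.3 and 50.1 CPM in the L1L2-AKO-labelled libraries. Its log2 fold change was 0.09 with a 95% interval from -0.15 to 0.33 (edgeR quasi-likelihood adjusted p = 0.624), so differences as large as the fall of *Pparg* lay outside that interval.

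Levels were set against each other as CPM per kb of exon. In L1L2-FF, *Cebpa* was at the top with 242 ± 26.9 CPM per kb, followed by *Pparg* with 127 ± 3.87, and the ranges of these did not overlap with each other or with any factor below. *Cebpb* at 29.0 ± 3.28 and *Ebf1* at 20.01 ± 6.13 came next and overlapped. The lower end held *Klf15* at 13.2 ± 2.54, *Ebf2* at 8.71 ± 2.40, *Zfp423* at 8.24 ± 0.375 and *Cebpd* at 5.23 ± 1.05 CPM per kb. In this lower end *Ebf2* could not be ranked against *Klf15* or *Zfp423*, while *Cebpd* lay under all the others.

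In the L1L2-AKO-labelled libraries the first 4 places were held by the same genes, with *Cebpa* at 188 ± 37.5 and *Pparg* at 84.6 ± 4.27 CPM per kb. *Cebpd* came next by its mean, at 12.5 ± 5.79 CPM per kb. Its range, from 5.77 to 15.9, overlapped those of *Zfp423* at 8.77 ± 0.623, *Klf15* and *Ebf2*, so it could not be ranked against them. *Klf15* at 7.64 ± 2.33 and *Ebf2* at 6.72 ± 0.932 had the lowest means and overlapped each other, and *Zfp423* overlapped *Klf15*. With the longest coding transcript in place of all exons, a length chosen after the data were seen, *Ebf1* and *Cebpb* changed places in both genotypes, and *Ebf2* and *Klf15* did so in the L1L2-AKO-labelled libraries.

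Ratios of counts within a library do not depend on sequencing depth or on scaling, and 7 were compared. *Cebpb* to *Cebpa*, an early factor against a late one, was 0.0712, 0.0681 and 0.0657 in L1L2-FF and 0.0931, 0.109 and 0.106 in the L1L2-AKO-labelled libraries. These did not overlap, and the log2 ratio differed by 0.58. *Cebpd* to *Cebpa* differed by 1.51 and did not overlap either. *Ebf2* to *Ebf1* was 0.337, 0.296 and 0.299 in L1L2-FF and 0.234, 0.188 and 0.122 in the L1L2-AKO-labelled libraries, a difference of -0.83 in log2 without overlap.

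With 3 libraries against 3, the smallest two-sided p an exact permutation test can give is 0.1, and these 3 ratios reached it (0.233 after Benjamini-Hochberg adjustment over the 7). No ratio can pass the threshold in this design. *Cebpb* to *Cebpa* and *Cebpd* to *Cebpa* share a denominator, so they are not independent. How often ratios of other gene pairs separate was not counted, and 36.4% of single tested genes did not overlap. The other ratios overlapped or had a larger p. *Pparg* to *Cebpa* differed by -0.21 (exact permutation p = 0.4), *Klf15* to *Pparg* by -0.23 (exact permutation p = 0.6), *Cebpb* to *Cebpd* by -0.93 (exact permutation p = 0.2) and *Zfp423* to *Ebf2* by 0.43 (exact permutation p = 0.2). With each library left out in turn, *Cebpb* to *Cebpa* differed by 0.54 to 0.65, *Cebpd* to *Cebpa* by 1.20 to 1.91 and *Ebf2* to *Ebf1* by -1.04 to -0.56. Smaller differences were less steady. *Klf15* to *Pparg* went to 0.0030 without L1L2-AKO replicate 2, *Pparg* to *Cebpa* to -0.039 without L1L2-AKO replicate 3, and *Zfp423* to *Ebf2* to 0.19 without L1L2-FF replicate 2.

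**Figure D3:**
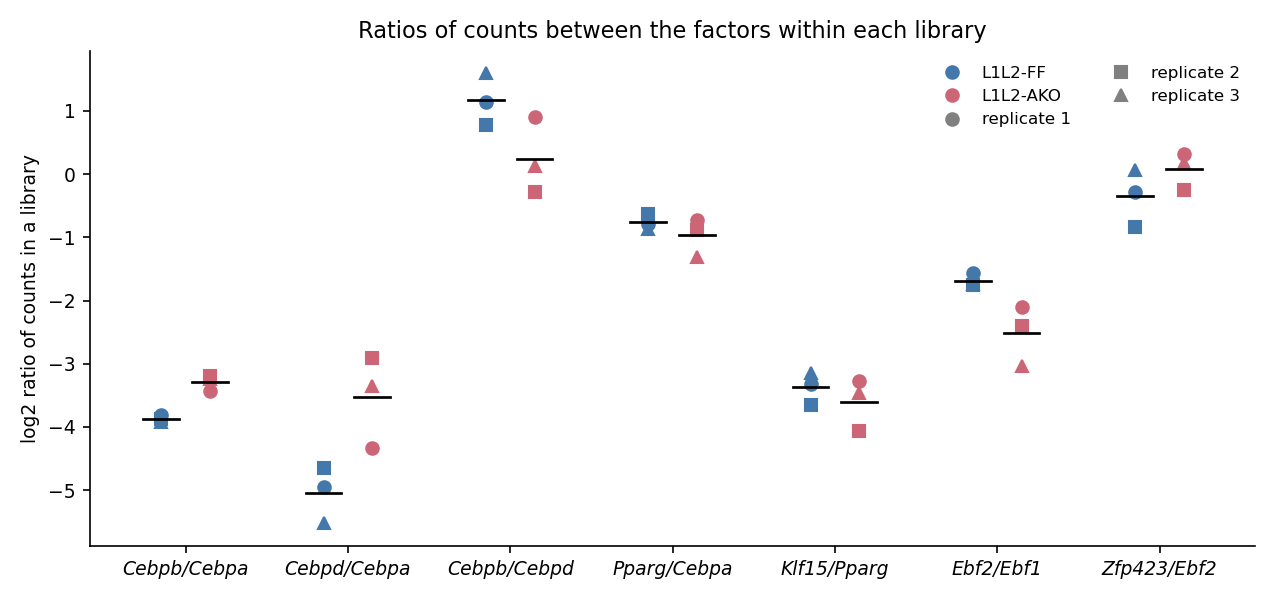
Log2 ratio of the counts of factor pairs within each library (y axis) for L1L2-FF (blue) and L1L2-AKO (red), with symbols for the replicate number and a bar at each mean. *Cebpb* to *Cebpa*, *Cebpd* to *Cebpa* and *Ebf2* to *Ebf1* separate the genotypes without overlap, with mean differences of 0.58, 1.51 and -0.83. The ratios to *Cebpa* share a denominator, and in this design no ratio can pass the threshold.

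Among close relatives of the factors, 3 of 8 tested passed (37.5%), all lower in the L1L2-AKO-labelled libraries. The counts of this list and of those below stand beside 16.5% of all tested genes called, and no list was tested as a set. *Ppara*, the receptor of fatty acid oxidation, fell from 17.0 ± 3.51 to 9.46 ± 0.778 CPM (log2 fold change -0.84, edgeR quasi-likelihood adjusted p = 0.0170). *Cebpg*, whose protein dimerizes with other C/EBPs, fell from 81.7 ± 8.07 to 54.9 ± 2.78 CPM (edgeR quasi-likelihood adjusted p = 0.0124). The stress-induced *Ddit3* (CHOP), another C/EBP relative, fell from 29.3 ± 2.17 to 14.2 ± 0.463 CPM (edgeR quasi-likelihood adjusted p = 0.0013). *Ppard*, *Cebpz*, *Ebf3*, *Ebf4* and *Zfp521* did not pass, with log2 fold changes from -0.32 to 0.54. *Cebpe*, a granulocyte factor, reached 8 counts at most and was not tested. The count of 3 dropped to 1 without L1L2-AKO replicate 2 or replicate 3.

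Partners and coregulators of PPARγ had 2 of 14 past the threshold, both lower, and a median log2 fold change of -0.08. This share, 14.3%, was not above the 16.5% of all tested genes. *Rxra*, which encodes the main partner of PPARγ on DNA, was at 178 ± 8.02 CPM in L1L2-FF and 179 ± 20.6 CPM in the other genotype, and the corepressor gene *Ncor1* had a log2 fold change of -0.07. *Rxrg*, a related partner, fell from 29.6 ± 5.70 to 14.0 ± 1.40 CPM (log2 fold change -1.09, edgeR quasi-likelihood adjusted p = 0.00493). *Nrip1*, encoding the corepressor RIP140, fell from 179 ± 17.6 to 79.7 ± 14.6 CPM (log2 fold change -1.17, edgeR quasi-likelihood adjusted p = 0.00243).

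Of 15 other regulators that promote adipogenesis, 5 passed (33.3%) and all were lower. They were *Egr2*, an early inducer of C/EBPβ, with a log2 fold change of -1.83 (85.8 ± 10.6 to 24.1 ± 2.96 CPM), the phosphatidate phosphatase *Lpin1* with -1.0, the lipogenic factors *Srebf1* with -0.73 and *Mlxipl* with -0.72, and *Stat5a* with -0.49. The edgeR quasi-likelihood adjusted p of *Egr2* was 3.89e-04. Its relative *Egr1*, in the list of immediate-early genes below, was also called lower, with a log2 fold change of -0.95. Whether *Egr2* fell as part of that response was not tested. The count fell to 3 without L1L2-FF replicate 1 or L1L2-AKO replicate 1, and to 1 without L1L2-AKO replicate 2 or replicate 3. *Nr3c1*, the glucocorticoid receptor, did not pass (log2 fold change -0.37, edgeR quasi-likelihood adjusted p = 0.0733).

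Of 15 genes that restrain adipogenesis, 1 passed (6.67%), a share under that of all tested genes. *Nr2f2* (COUP-TFII), a nuclear receptor that opposes *Pparg* expression, rose from 40.3 ± 4.93 to 58.4 ± 7.56 CPM (log2 fold change 0.53, edgeR quasi-likelihood adjusted p = 0.0366). The call was lost without L1L2-FF replicate 1, L1L2-AKO replicate 2 or L1L2-AKO replicate 3, and the count was 2 without L1L2-FF replicate 3. It was also lost with library size alone, with upper-quartile scaling and with library sizes taken without the top 20 genes, each of which left 0 of the 15 past. *Foxo1*, a forkhead factor, had a log2 fold change of 0.30 and *Wwtr1*, the gene of TAZ, one of -0.37, and neither passed (edgeR quasi-likelihood adjusted p = 0.124 and 0.0762). *Dlk1*, the preadipocyte factor, was at 136 ± 34.2 CPM in L1L2-FF and 82.1 ± 14.5 CPM in the L1L2-AKO-labelled libraries and did not pass either (edgeR quasi-likelihood adjusted p = 0.0533).

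Of 20 known target genes of PPARγ and C/EBPα, 10 passed (50%), 9 of them lower and 1 higher in the L1L2-AKO-labelled libraries. The median log2 fold change over the 20 was -0.64. *Cfd*, the adipokine adipsin, fell 17.6-fold (log2 fold change -4.14, SE 0.328, edgeR quasi-likelihood adjusted p = 3.99e-04). *Slc2a4*, the insulin-responsive glucose transporter, fell from 229 ± 46.1 to 65.1 ± 15.6 CPM. *Retn*, the gene of resistin, fell from 732 ± 230 to 204 ± 46.6 CPM, and *Adipoq*, *Pck1*, *Acsl1*, *Aqp7*, *Dgat2* and *Gpd1* were also called lower.

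Of the called targets, 1 went the other way. *Angptl4*, an inhibitor of lipoprotein lipase, rose with a log2 fold change of 0.84 (edgeR quasi-likelihood adjusted p = 0.0255). The most abundant targets did not pass, with log2 fold changes of -0.30 for the fatty acid carrier *Fabp4*, 0.52 for *Lpl* and 0.12 for *Scd1*. Their 95% intervals include no difference. That of *Fabp4* ran from -0.80 to 0.19, that of *Lpl* from -0.15 to 1.19 and that of *Scd1* from -1.52 to 1.75. *Scd1* was at 4306, 1940 and 17107 CPM in L1L2-FF. For *Lpl* the genotypes did not overlap, with 13956 CPM as the highest L1L2-FF value and 14180 CPM as the lowest L1L2-AKO value. Of all tested genes, 18% did not overlap in this direction. Without L1L2-FF replicate 1, L1L2-AKO replicate 2 or L1L2-AKO replicate 3, 6 targets passed.

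**Figure D4:**
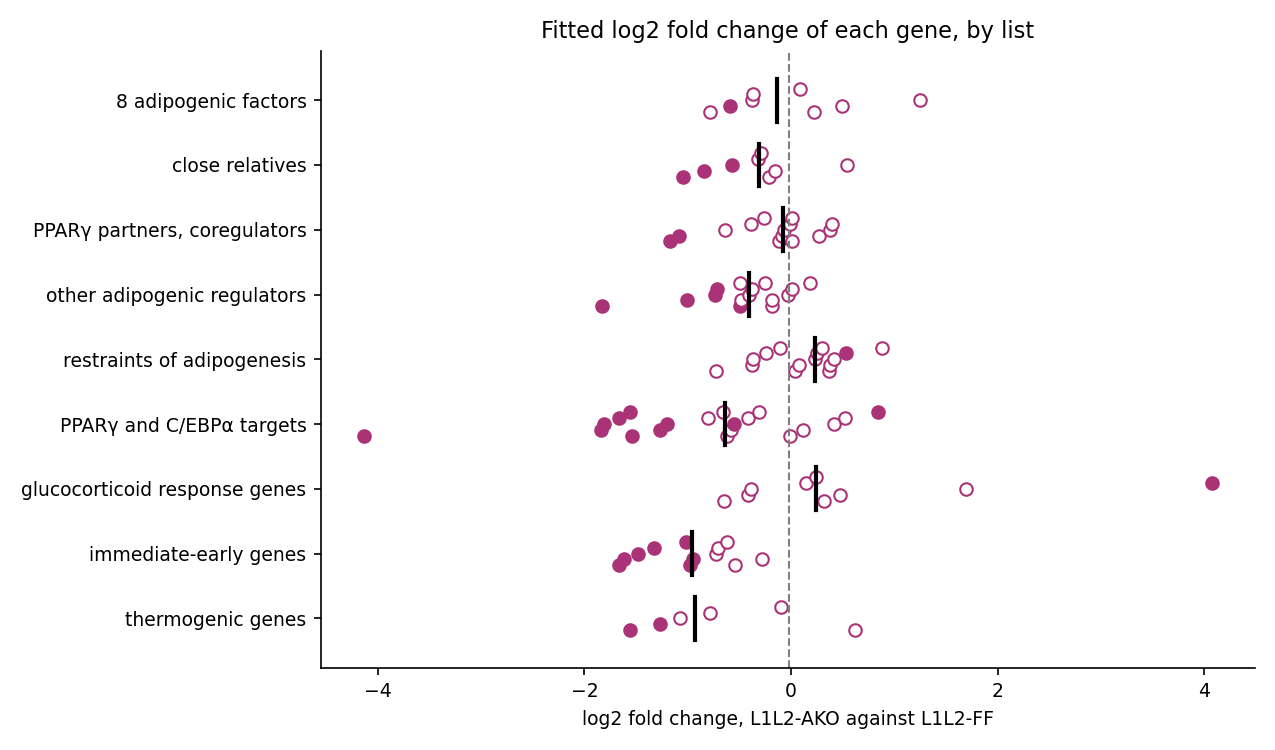
Log2 fold change of L1L2-AKO against L1L2-FF (x axis) for each tested gene, with one row per list from the 8 factors to the thermogenic genes, filled points past the threshold, a black bar at each list's median and a dashed line at the median of all tested genes. The median is -0.14 for the 8 factors and -0.64 for the target genes of PPARγ and C/EBPα.

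Upstream signals of the early factors gave a mixed picture. Of 9 glucocorticoid response genes, *Hif3a* alone passed (11.1%, under the share of all tested genes). It rose from 0.835 ± 0.135 to 14.2 ± 2.34 CPM (log2 fold change 4.08, edgeR quasi-likelihood adjusted p = 1.6e-04). The median of the list was 0.24. *Tsc22d3* (GILZ) and *Sgk1*, classic glucocorticoid targets, had log2 fold changes of 0.24 and 0.15 and did not pass, nor did the pyruvate dehydrogenase kinase gene *Pdk4* with -0.65. *Mt2*, a metallothionein named after its values were seen, was low in the same library as *Cebpd*. It was at 6.97 CPM in L1L2-AKO replicate 1 against 88.2 and 74.1 CPM in replicates 2 and 3. The list did not share one pattern over these libraries. In replicates 1 to 3, *Pdk4* was lowest in the first, at 131, 296 and 341 CPM, and *Sgk1* highest in the first, at 175, 164 and 116 CPM. A link of *Cebpd* to glucocorticoids was not tested. The count for this list was 2 without L1L2-AKO replicate 1.

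Immediate-early genes rise within minutes of a stimulus or of tissue dissociation. Of 12 such genes, 7 passed (58.3%) and all 7 were lower in the L1L2-AKO-labelled libraries. The median over the 12 was -0.96, and the AP-1 genes *Fos* and *Jun* and the zinc finger gene *Egr1* were among the 7. The 3 largest falls of the list were those of *Ier2* (-1.67), *Fosb* (-1.61) and *Atf3* (-1.48). The 12 genes summed to 5269 to 8828 CPM in L1L2-FF and 3407 to 3870 CPM in the L1L2-AKO-labelled libraries, and the part of this in the levels of the factors was not tested. Without L1L2-FF replicate 3, 11 of these genes passed.

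Among the 157 genes of the other lists, the profiles most like each factor over the 6 libraries were named by Pearson's r of log2 CPM. The libraries split by genotype, so r also counts the difference between genotypes and is given as a description. *Pparg* was most like *Adrb3* (0.994), the adipocyte adrenergic receptor gene, and *Acsl1* (0.987). *Klf15* was most like the lipid droplet gene *Plin1* (0.990) and *Dgat2* (0.981), and *Cebpa* like the hormone-sensitive lipase gene *Lipe* (0.978) and *Stat5a* (0.912).

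The other factors had different neighbours. *Cebpd* was most like *Zfp521* (0.934), a relative of *Zfp423*, and *Tcf7l2* (0.929), which encodes a Wnt effector. *Ebf1* matched the T cell gene *Cd3g* (0.975). *Ebf2* matched the immediate-early genes *Dusp1* (0.939) and *Junb* (0.920). *Cebpb* with *Twist1* (0.833) and *Zfp423* with *Lep* (0.896) had looser matches.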

How the data were processed

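The authors pooled adipocytes of 4 male mice per library, captured mRNA with oligo(dT), sequenced paired ends on a BGISEQ-500 and, per the submitters' processing notes, used HISAT2 2.1.0, the mm10 build and StringTie 1.3.5. Deposited were raw, unnormalized counts for each gene symbol. The counting program, annotation and strand setting are not given in the sources used here. Libraries were grouped by the labels, 3 per genotype. Labels do not say whether pools of one genotype came from separate litters, so p-values measure the spread between these libraries. Replicates of a genotype differed by more than sampling noise.

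All genes were fitted with edgeR 4.0.16 in R 4.3.3: filterByExpr (minimum count 10, minimum total 15), TMM normalization and the two-sided quasi-likelihood test, with Benjamini-Hochberg adjustment over 15674 genes and a threshold of 0.05. SE was obtained as |log2 fold change| over the root of the F statistic. Total counts were 31492835, 30548473 and 32107917 in L1L2-FF and 31972386, 30833700 and 31018213 in L1L2-AKO. Ratios were tested by exact permutation with SciPy 1.17.1. Positions and exon lengths came from GENCODE M21 and promoter windows from RefSeq (GRCm38.p6), which matched 6 of the 8 factors. Named were all factors, their relatives, *Lats1* and *Lats2*, and of each other list the 3 most abundant genes and the 3 largest changes past the threshold, and per factor up to 2 of the most similar genes. Some genes drawn by this rule are not reported here. *Mt2*, *Mlxipl*, *Pck1*, *Aqp7*, *Gpd1*, *Angptl4* and genes overlapping a named gene fall outside that rule and were chosen after their values were seen. The factors and lists were chosen with earlier results of these data known. Alternatives were other scalings, no count filter, DESeq2 1.42.0, limma-voom (limma 3.58.1), the replicate number as a block and leaving out each library.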

Additional observations from a re-analysis of the deposited data

How the results depend on the processing

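*Pparg* kept its call under the other scalings, filters and tools tried, with edgeR, DESeq2 or limma adjusted p from 3.27e-05 to 0.0264, but not with every library left out. No log2 fold change of the 8 factors changed direction under any setting. Factors past the threshold were 2 with DESeq2 size factors (*Cebpd* 1.26), 2 with upper-quartile scaling (*Klf15* -0.82), 2 without the 20 most abundant genes in the library sizes (*Klf15* -0.83), 3 with no count filter (*Cebpd* 1.25, *Klf15* -0.78) and 3 by DESeq2's Wald test (*Cebpd* 1.26, *Klf15* -0.77). Restraints of adipogenesis past the threshold were 0 with library size alone, upper quartile or the top genes left out, 2 with no filter and 3 by DESeq2. Mature adipocyte markers gave 5 with library size alone, with the top genes left out and by DESeq2. Mural markers gave 5 with no filter and by DESeq2, B and T cell markers 1 with each, endothelial markers 1 by DESeq2, and Schwann markers 6 with no filter, 7 by DESeq2 and 1 by limma-voom. Whether the replicate numbers pair the libraries was not settled, and the main fit was unpaired. Deviations of same-numbered libraries correlated at 0.188, 0.255 and -0.0544. The value of 0.255, for replicate 2, was the highest of any pair across genotypes, and L1L2-FF replicate 1 also correlated best with its same-numbered library. L1L2-FF replicate 3 correlated best with L1L2-AKO replicate 1, at 0.211. With the replicate block 2514 genes passed, and 2 factors (*Klf15* -0.81), 2 restraints, 4 endothelial, 5 mural and 6 Schwann markers. With one library left out, genes past ranged from 1281 (without L1L2-AKO replicate 2, with 1290 without L1L2-FF replicate 1 and 1374 without L1L2-AKO replicate 3) to 2845, factors 0 (without the same 3 libraries) to 3, relatives 1 to 3, other regulators 1 to 5, restraints 0 to 2, targets 6 to 11, glucocorticoid genes 1 to 2, immediate-early genes 6 to 11, thermogenic genes 1 to 2, adipocyte markers 3 to 5, progenitor markers 1 to 4, macrophage markers 8 to 13, endothelial 0 to 1, mural 0 to 5, B and T cell 0 to 4 and Schwann markers 0 to 4. The log2 fold change ranged from -0.63 to -0.55 for *Pparg*, 1.04 to 1.59 for *Cebpd* and -1.0 to -0.56 for *Klf15*. Fewer libraries give fewer degrees of freedom, and otherwise the cause was not tested. Genes past the threshold numbered 2413 to 3370 under the other settings, and the excess of higher calls depended on scaling, with 1347 higher and 1297 lower by upper quartile and 1291 higher and 1322 lower without the top genes. Intervals cover the spread between 3 pools per genotype, and factors with adjusted p over the threshold were not shown to be equal between genotypes.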

Other observations

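Lists of other cell types and programmes gave these counts in the comparison of genotypes by edgeR's quasi-likelihood test, beside 16.5% of all tested genes called. Thermogenic genes had 2 of 6 past the threshold, both lower in the L1L2-AKO-labelled libraries: *Cidea*, a lipid droplet protein gene of thermogenic fat, with a log2 fold change of -1.27, and *Cox8b*, a cytochrome oxidase subunit gene, with -1.56. The count was 1 without L1L2-AKO replicate 1 or 3. *Ucp1*, the uncoupling protein gene, was at 227 ± 117 and 211 ± 48.0 CPM. Of 8 mature adipocyte markers 3 passed (5 without L1L2-FF replicate 2), all lower, with *Adrb3* falling from 114 ± 7.07 to 18.6 ± 2.72 CPM, while the lipid droplet gene *Plin4* was at 2462 ± 583 and 2463 ± 527 CPM. Macrophage markers had 13 of 14 past, all higher, with a median log2 fold change of 1.51, and 8 past without L1L2-FF replicate 1. The mannose receptor gene *Mrc1* rose from 71.5 ± 23.6 to 256 ± 28.1 CPM and the fractalkine receptor gene *Cx3cr1* from 2.42 ± 0.354 to 15.8 ± 2.35 CPM.

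Progenitor markers had 1 higher and 2 lower of 9, and summed to 518 to 736 CPM in L1L2-FF and 427 to 533 CPM in the L1L2-AKO-labelled libraries. *Anxa3* was the one called higher, with a log2 fold change of 0.92, and *Pi16* and *Cd55* were the ones called lower. The count of 3 was 1 without L1L2-FF replicate 1 or L1L2-AKO replicate 2. Endothelial markers had 0 of 10 past by edgeR, 2 at an unadjusted p under 0.05, 1 by DESeq2, 0 by limma-voom and 1 without L1L2-AKO replicate 1. Mural markers had *Notch3* higher and *Rgs5* and *Cspg4* lower, of 8 tested, and leaving out L1L2-FF replicate 1 gave 1 call, L1L2-AKO replicate 2 gave 0 and L1L2-AKO replicate 1 gave 5. Schwann cell markers had 3 of 7 lower, among them the myelin gene *Mbp* and the neural crest factor *Sox10*, with edgeR quasi-likelihood adjusted p of 0.0427 and 0.0409. Of the 7, 0 passed without L1L2-FF replicate 2 or 3 or L1L2-AKO replicate 1 or 3. No defining marker of these lists was at 0.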
